A study of Mus musculus with 40 samples.

Results

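The genes described here lie on mouse chromosome 14: *Ncoa4*, *Anxa8*, *Mmrn2*, *Cdhr1*, *Peli2*, *Tmem260*, *Rem2*, *Ppp1r3e*, *Fam124a* and *Phyhip*. These are 10 of the 24062 genes in the count table and 10 of its 845 genes on chromosome 14, and all 10 lie at a mean of 1 CPM (counts scaled to library size) or more over the libraries, as do 463 genes of that chromosome. They were picked because their levels differed between *Sall2* KO and WT cells in these libraries, so their KO against WT values are a description and carry no test, and no threshold came with the choice. *Sall2*, on the same chromosome, encodes a zinc finger transcription factor.

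The libraries are RNA-Seq of primary mouse embryonic fibroblasts (MEFs) of embryos at 13.5 days post coitum and passage 3, on a mixed C57BL/6J-129P2OlaHsd strain background that all groups share. Cells of 1 WT, 1 heterozygous (Het) and 3 KO embryos were left untreated (control), and cells of each genotype were also given 1 µM doxorubicin, a DNA-damaging topoisomerase II inhibitor, for 16 h. Of the 3 KO libraries with doxorubicin, those labelled 2 and 3 did not differ in a single count over 24062 genes and entered once, as KO embryo 2, which leaves 9 of 10 libraries: WT, Het and KO embryos 1, 2 and 3 in control, and WT, Het and KO embryos 1 and 2 with doxorubicin. Since WT and Het are 1 embryo each, genotype and embryo cannot be told apart for them, and p-values measure only the spread between these libraries.

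A gene targeted in 129P2OlaHsd embryonic stem cells and then crossed to C57BL/6J mice carries with it a stretch of the donor chromosome, known as the congenic footprint. Genes in that stretch are passengers: KO animals have the 129P2OlaHsd allele of the neighbour as well as the targeted allele, so a neighbour's level can differ between KO and WT for reasons unrelated to the loss of the targeted protein. The reads were aligned to the C57BL/6J genome (mm10). The counts alone cannot tell a strain allele from the loss of *Sall2*, and neither cause was tested here. To ask which genes depend on *Sall2*, the study silenced it in WT cells by short hairpin RNA. It also edited the gene by CRISPR in mouse and human cell lines, and used published arrays of embryonic stem cells with induced *Sall2*. These libraries include none of those cells. The study's text names none of the genes described here among those affected by the silencing, and does not list every gene it tested.

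The 10 genes have no common pathway. *Ncoa4* encodes the receptor that delivers ferritin to autophagy. *Peli2* encodes an E3 ubiquitin ligase of the Pellino family that acts in Toll-like and interleukin-1 receptor signalling, and *Ppp1r3e* a subunit that directs protein phosphatase 1 to glycogen. *Tmem260* encodes an O-mannosyltransferase that modifies plexins and the MET receptor, and *Cdhr1* a cadherin of photoreceptors. *Anxa8* encodes a calcium-dependent phospholipid-binding annexin, *Mmrn2* an extracellular matrix glycoprotein of endothelium, *Rem2* a small GTPase that inhibits voltage-gated calcium channels, and *Phyhip* a brain protein that binds phytanoyl-CoA hydroxylase. The function of *Fam124a* is little known.

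The genes are spread over both sides of *Sall2* (chr14:52311172-52328762, minus strand, GRCm38). On one side lie *Ncoa4* (chr14:32159865-32179855), *Anxa8* (chr14:34085981-34100571), *Mmrn2* (chr14:34375465-34404287) and *Cdhr1* (chr14:37077857-37098347), at 20.13, 18.21, 17.91 and 15.21 Mb. *Peli2* (chr14:48120823-48281575) and *Tmem260* (chr14:48446124-48524246) lie on the same side at 4.03 and 3.79 Mb. On the other side are *Rem2* (chr14:54476100-54480431) at 2.15 Mb, *Ppp1r3e* (chr14:54872669-54877550) at 2.54 Mb, *Fam124a* (chr14:62555737-62608486) at 10.23 Mb and *Phyhip* (chr14:70457476-70468832) at 18.13 Mb. *Cdhr1* and *Ppp1r3e* are on the minus strand and the other 8 on the plus strand.

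The study lists 204 genes with KO-linked 129P2OlaHsd variants, 182 of which were found on chromosome 14 by symbol. Only *Tmem260* of the 10 is on that list. *Ncoa4*, *Anxa8*, *Mmrn2* and *Cdhr1* all fall in the longest stretch without a listed gene, 26.69 Mb between *Ube2e2* and *Ddhd1* that holds 215 genes of the table. The other 5 unlisted genes have a listed gene within 1 Mb on each side. A variant can be found from RNA reads only in a gene with enough reads, and the list leaves out variants that WT shares. An unlisted gene is thus not shown to lack a variant. The longest stretch also holds genes with many reads, such as *Glud1* at a mean of 408 CPM. Why the unlisted genes of the 10 are not on the list was not tested. In its text the study counts *Anxa8* among the genes of the introgressed region, and reports that qPCR in immortalized cells bore out its difference between KO and WT. The text does not name *Anxa8* among the genes affected when *Sall2* was silenced in WT cells. The study also names *Tmem260* among the congenic genes whose level depended linearly on genotype in both treatments.

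The sequences before the start show what kind of promoter 5 of the 10 genes have: *Peli2* and *Tmem260*, adjacent genes that were both lower in KO, *Cdhr1*, which was lower too, and *Anxa8* and *Fam124a*, which were higher in most KO libraries. The other two genes with a start, *Ncoa4* and *Rem2*, hold neither motif named below. They are RefSeq starts on GRCm38.p6, available for 7 of the 10 genes, and hold up to 250 bases before the start, without bases inside the annotated gene. SALL2 is known to bind GC-rich sequence, and the capitals mark GGGTGGG or GGGCGGG on either strand. Of 32851 starts of all genes, 15.8% hold GGGTGGG, 23.4% GGGCGGG and 33.7% either one in the 250 bases before the start. The stretches are, in order, chr14:48120619-48120822 (plus strand), chr14:48445873-48446122 (plus), chr14:37098348-37098597 (minus), chr14:34085729-34085978 (plus) and chr14:62555487-62555736 (plus).
Peli2: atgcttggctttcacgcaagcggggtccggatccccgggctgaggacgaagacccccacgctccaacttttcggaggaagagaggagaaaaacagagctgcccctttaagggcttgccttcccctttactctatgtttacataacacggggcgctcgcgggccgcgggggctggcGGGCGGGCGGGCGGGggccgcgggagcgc
Tmem260: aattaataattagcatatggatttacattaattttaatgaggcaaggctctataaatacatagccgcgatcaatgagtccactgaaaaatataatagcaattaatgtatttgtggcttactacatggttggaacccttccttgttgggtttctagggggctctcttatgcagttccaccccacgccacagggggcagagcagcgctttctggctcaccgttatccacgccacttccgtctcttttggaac
Cdhr1: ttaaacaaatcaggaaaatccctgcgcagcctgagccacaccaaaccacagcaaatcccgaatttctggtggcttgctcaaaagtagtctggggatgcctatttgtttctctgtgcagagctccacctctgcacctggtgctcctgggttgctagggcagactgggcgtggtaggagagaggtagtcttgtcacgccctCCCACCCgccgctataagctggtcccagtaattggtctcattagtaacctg
Anxa8: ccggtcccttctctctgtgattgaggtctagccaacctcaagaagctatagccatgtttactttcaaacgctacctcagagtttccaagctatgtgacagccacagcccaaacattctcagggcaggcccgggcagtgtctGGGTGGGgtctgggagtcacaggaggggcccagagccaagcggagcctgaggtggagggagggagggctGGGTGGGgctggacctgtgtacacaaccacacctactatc
Fam124a: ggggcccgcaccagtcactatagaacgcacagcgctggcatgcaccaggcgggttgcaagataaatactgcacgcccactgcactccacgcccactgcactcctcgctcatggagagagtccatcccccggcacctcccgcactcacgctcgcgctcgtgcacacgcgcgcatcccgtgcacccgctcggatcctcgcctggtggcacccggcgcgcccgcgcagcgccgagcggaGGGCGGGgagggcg

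The *Peli2* stretch holds 3 overlapping copies of GGGCGGG, the *Anxa8* stretch 2 of GGGTGGG, *Cdhr1* 1 of GGGTGGG on the opposite strand and *Fam124a* 1 of GGGCGGG. The *Tmem260* stretch holds neither, and is the poorest of the 5 in G and C, at 43.2% against 70.4% for *Fam124a*. A match describes these letters only, and the reference bases are those of C57BL/6J, not of 129P2OlaHsd. Genes with the motif stood on both sides of WT.

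Depth ran from 15560728 to 24122414 counts. Library sizes were scaled by the trimmed mean of M-values before CPM were taken, after which 3 counts equal 0.123 to 0.169 CPM. The scaling factors were 1.216 to 1.351 in the Het libraries and that of KO embryo 3, against 0.8151 to 1.009 in the others. The 9 fibroblast markers were detected in every library. The cultures differed in state: the Het libraries and that of KO embryo 3 had summed levels of 14 interferon response genes of 1534 to 2775 CPM, against 49.4 to 433 CPM in the other 6, and summed fibroblast markers of 16945 to 22397 CPM against 48807 to 99872 CPM. Without KO embryo 3, mean KO minus WT in control was -1.30 for *Ncoa4*, -1.41 for *Cdhr1*, -1.14 for *Peli2*, -1.22 for *Tmem260*, -2.46 for *Ppp1r3e*, 1.6 for *Fam124a*, 1.46 for *Anxa8* and 0.35 for *Mmrn2* on the log2 scale. The part of this state in the Het levels was not tested. *Xist* and Y-linked counts made KO embryos 1 and 3 male and the others female.

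The targeted gene *Sall2* had KO levels of 20.1, 24.4 and 19.1 CPM in control (embryos 1, 2 and 3), below the Het level of 24.0 CPM in 2 of 3 libraries and the WT level of 38.0 CPM in all. Under doxorubicin the KO levels were 4.19 and 3.72 CPM, the Het level 7.80 CPM and the WT level 9.36 CPM. All KO libraries still held *Sall2* reads, and gene counts do not show on which exon they fall.

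*Ncoa4*, *Cdhr1*, *Peli2*, *Tmem260* and *Ppp1r3e* were lower in all 5 KO libraries than in the WT library of the same treatment, each by 1.5-fold or more. *Cdhr1* met this fold only narrowly, at a log2 ratio of -0.59 in KO embryo 2 with doxorubicin. *Fam124a* and *Phyhip* were higher in all 5, though by less with doxorubicin than in control. *Anxa8*, *Mmrn2* and *Rem2* were on 1 side of WT in only part of the libraries. In control, 8 of the 10 genes had every KO library on the same side of WT, where 38.9% of the 463 chromosome 14 genes and 31.7% of 13284 genes elsewhere had. With doxorubicin, where there are 2 KO libraries, 9 of 10 did, against 64.4% and 58.1%. In both treatments 7 of 10 did, against 21.4% and 12%. These shares stand as background only, as the genes were picked on this contrast.

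**Figure D1:**
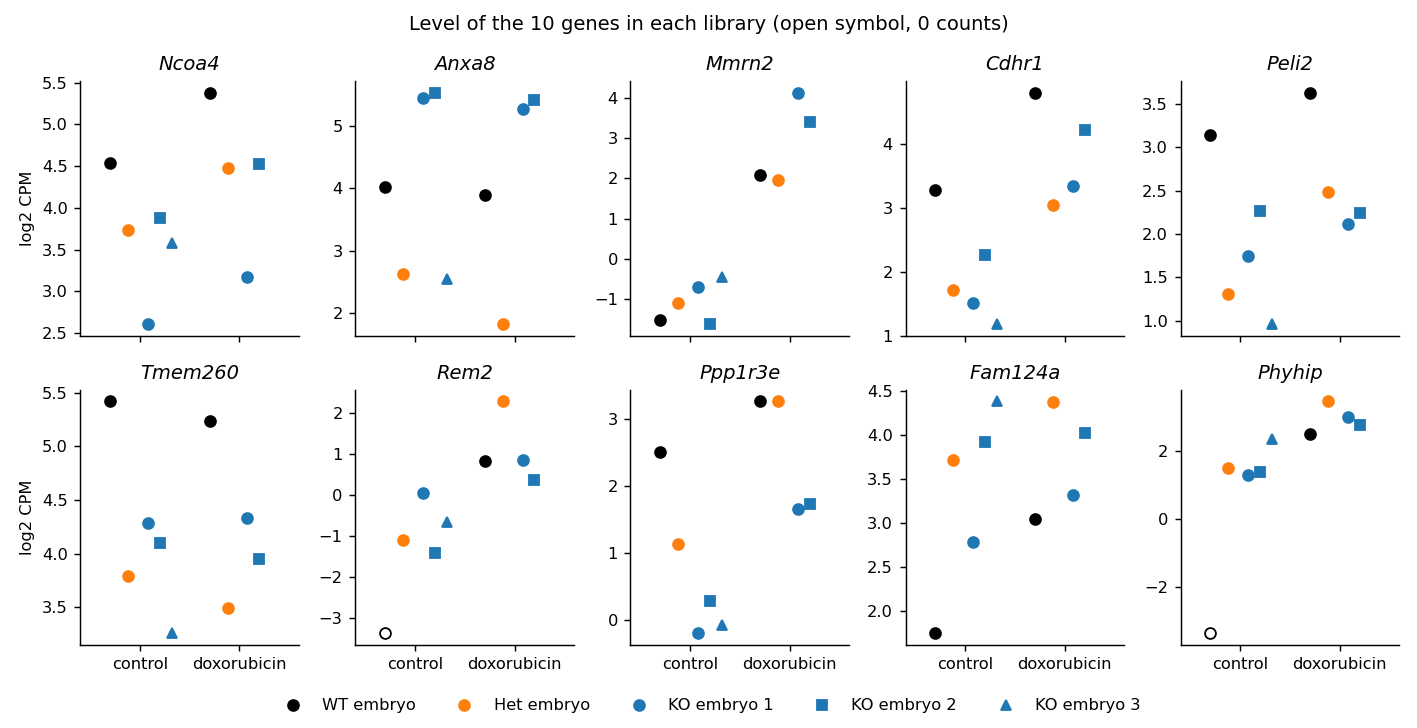
Level of each of the 10 genes (log2 CPM, scaled by trimmed mean of M-values, prior count 2) in the 9 libraries, by treatment; black is WT, orange Het and blue KO, with a circle, square and triangle for KO embryos 1, 2 and 3 and an open symbol for 0 counts. The KO symbols of *Ppp1r3e* lie together below WT in both treatments, while those of *Anxa8* split, with KO embryo 3 at 5.77 CPM beside Het at 6.10 CPM.

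*Ppp1r3e* had the most uniform KO level of the 10 genes. Control levels were 0.776, 1.13 and 0.857 CPM in KO embryos 1, 2 and 3, against 5.59 CPM in WT and 2.09 CPM in Het. Under doxorubicin the KO levels were 3.03 and 3.21 CPM, while WT and Het were both at 9.51 CPM. All KO libraries lay below both WT and Het, and Het lay between WT and KO in control but at the WT level with doxorubicin. The mean KO log2 CPM was below WT by -2.50 ± 0.25 (SD, n = 3 libraries) in control and by -1.58 ± 0.06 (SD, n = 2) with doxorubicin. *Ppp1r3e* has the fewest reads of the 5 lower genes, with 15 to 20 counts per KO control library.

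*Peli2* in control stood at 3.26, 4.68 and 1.85 CPM in KO embryos 1, 2 and 3, with Het at 2.37 CPM and WT at 8.71 CPM. Its doxorubicin levels were 4.24 and 4.64 CPM in KO, 5.47 CPM in Het and 12.2 CPM in WT. WT was the highest library in each treatment, and Het lay inside the KO range in control and between WT and KO with doxorubicin. The mean KO log2 CPM differed from WT by -1.48 ± 0.65 (SD, n = 3) and -1.44 ± 0.09 (SD, n = 2). Its exons share 869 bases, or 9.6%, with the pseudogene *Gm6498* on the same strand, so the split of reads between them is uncertain.

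*Tmem260*, 164.5 kb from *Peli2*, had control levels of 19.5, 17.1 and 9.52 CPM in KO embryos 1, 2 and 3, 13.8 CPM in Het and 42.7 CPM in WT. With the drug, KO stood at 20.1 and 15.4 CPM, Het at 11.1 CPM and WT at 37.7 CPM. The WT library was again above all others, and Het was below both KO embryos 1 and 2 in each treatment. The linear dependence on genotype that the study reports was fitted to counts with its own normalization. The Het levels here were below mean KO in both treatments, not midway between WT and KO. The difference of mean KO from WT was -1.53 ± 0.55 (SD, n = 3) on the log2 scale in control and -1.10 ± 0.27 (SD, n = 2) with doxorubicin.

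*Cdhr1* levels in control were 2.74, 4.73 and 2.16 CPM for the KO embryos, 3.19 CPM for Het and 9.71 CPM for WT. After doxorubicin they were 10.0 and 18.5 CPM for KO, 8.13 CPM for Het and 27.9 CPM for WT. WT was the highest in both treatments, and Het was inside the KO range in control and below both KO libraries with doxorubicin. Mean KO differed from WT by -1.64 ± 0.56 (SD, n = 3) and -1.03 ± 0.62 (SD, n = 2) on the log2 scale.

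*Ncoa4* read 6.00, 14.6 and 11.9 CPM in the KO control libraries, 13.2 CPM in Het and 23.2 CPM in WT. The doxorubicin libraries read 8.93 and 23 CPM (KO), 22.2 CPM (Het) and 41.6 CPM (WT). WT was the highest in both treatments and Het was inside the KO range in both. The log2 difference of mean KO from WT was -1.18 ± 0.66 (SD, n = 3) in control and -1.53 ± 0.96 (SD, n = 2) with doxorubicin. KO embryo 1 was the lowest library in each treatment. With doxorubicin the spread is only the gap between 2 libraries and cannot be assigned to either. The next gene, *Timm23*, with a gap of only 0.3 kb between the gene bodies, differed by 0.33 and 0.28, in the opposite direction.

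*Fam124a* stood furthest above WT in KO control among the genes with reads in every library. KO embryos 1, 2 and 3 were at 6.78, 15.0 and 20.7 CPM, Het at 13 CPM and WT at 3.27 CPM, so that WT lay below all and Het inside the KO range. Under doxorubicin KO was at 9.92 and 16.1 CPM, with WT lowest at 8.16 CPM and Het highest at 20.6 CPM. The mean KO log2 CPM was above WT by 1.94 ± 0.82 (SD, n = 3) in control and by 0.63 ± 0.49 (SD, n = 2) with doxorubicin.

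*Phyhip* had 0 counts in the WT control library but 46, 45 and 111 in the libraries of KO embryos 1, 2 and 3, and 67 in that of Het. These counts correspond to 2.38, 2.54 and 5.01 CPM in KO and 2.74 CPM in Het. Set against a floor of 3 counts in the WT library, mean KO was at least 21.9-fold higher and Het at least 18.2-fold higher. With doxorubicin the WT library held 113 counts. The KO libraries were at 7.99 and 6.79 CPM there, WT at 5.62 CPM and Het at 11 CPM, a log2 difference of 0.38 ± 0.16 (SD, n = 2) between mean KO and WT. *Phyhip* was thus not detectable at this depth in the WT control library alone, and WT was lowest in both treatments.

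*Rem2* was likewise at 0 counts in WT control, with 9 counts in Het and 18, 5 and 12 in KO. In CPM, KO was at 0.931, 0.282 and 0.541 and Het at 0.368, and mean KO was at least 3.87-fold above the floor of 3 counts. Under doxorubicin *Rem2* was at 1.71 and 1.19 CPM in KO, 1.69 CPM in WT and 4.76 CPM in Het. Here the KO libraries lay around WT and Het was the highest, and the log2 difference of mean KO from WT was -0.23 ± 0.34 (SD, n = 2).

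*Anxa8* did not have one KO level. In control KO embryos 1, 2 and 3 were at 43.6, 46.4 and 5.77 CPM, against 6.10 CPM in Het and 16.3 CPM in WT. KO embryos 1 and 2 were above WT, while KO embryo 3 was below WT and beside Het, as in the sums of interferon genes and fibroblast markers. The part of that culture state in the *Anxa8* level was not tested, and state and embryo cannot be told apart. With doxorubicin KO was at 38.8 and 42.7 CPM, WT at 14.8 CPM and Het at 3.42 CPM, so that Het was lowest and both KO libraries were highest. Mean KO differed from WT by 0.48 ± 1.70 (SD, n = 3) on the log2 scale in control, which is smaller than its spread, and by 1.46 ± 0.10 (SD, n = 2) with doxorubicin. Summed levels of 9 epithelial markers in control were 33.3, 32.4 and 16.1 CPM in the KO embryos, 15.8 CPM in Het and 34.9 CPM in WT, and their part in the *Anxa8* level was not tested.

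*Mmrn2* was near the limit of detection in control, with 10, 4 and 14 counts in the KO libraries, 9 in Het and 5 in WT. In CPM, KO was at 0.517, 0.225 and 0.631, Het at 0.368 and WT at 0.252, which overlap. Under doxorubicin KO was at 17.5 and 10.6 CPM, Het at 3.80 CPM and WT at 4.13 CPM, so that both KO libraries were above WT and Het, by 1.69 ± 0.51 (SD, n = 2) on the log2 scale for mean KO against WT. The summed level of 12 endothelial markers with doxorubicin was 136 and 108 CPM in KO, 101 CPM in Het and 177 CPM in WT, and was not higher in KO than in WT.

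Per kb of merged annotated exon, WT control levels ran from 8.65 CPM for *Anxa8* through 2.47 for *Ncoa4*, 2.24 for *Cdhr1*, 2.23 for *Ppp1r3e* and 2.03 for *Tmem260* to 0.958 for *Peli2*, 0.742 for *Fam124a* and 0.0633 for *Mmrn2*. The lengths join the exons of all GENCODE transcripts, from 1880 bases for *Anxa8* to 21065 for *Tmem260*, whereas reads were counted on iGenomes genes. The order depends on these lengths and need not be that of the transcripts. With 1 WT library in control, the order of close neighbours such as *Cdhr1* and *Ppp1r3e* cannot be set against a spread. In KO control libraries the order of the lower genes was not stable, as *Ncoa4* ranged from 0.641 to 1.56 and *Tmem260* from 0.452 to 0.924.

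**Figure D2:**
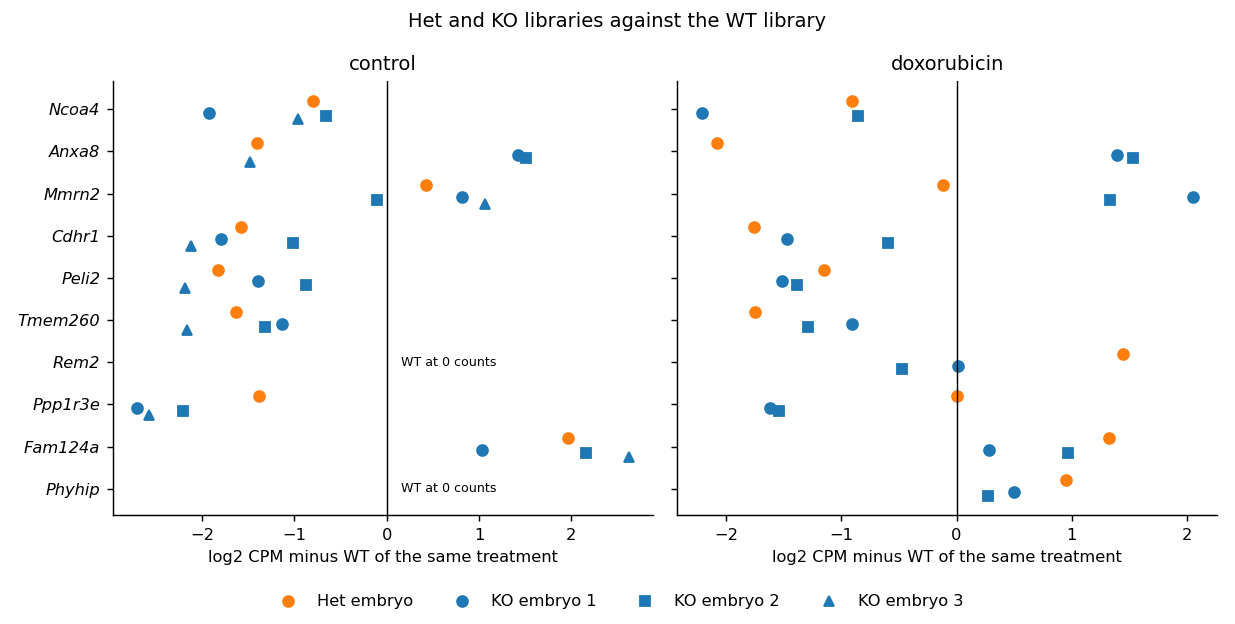
log2 CPM of the Het library (orange) and the KO libraries (blue; circle, square and triangle for embryos 1, 2 and 3) minus the WT library of the same treatment, for each gene and treatment; *Phyhip* and *Rem2* have no ratio in control because WT held 0 counts. Points left of 0 are lower than WT, and *Ppp1r3e*, *Peli2*, *Tmem260*, *Cdhr1* and *Ncoa4* have all KO points there in both panels.

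KO embryos 1 and 2 were sampled in both treatments, so each KO embryo can be followed. *Ncoa4* was higher in KO embryo 2 than in KO embryo 1 by 1.27 in control and 1.36 with doxorubicin on the log2 scale. The same difference was 1.13 and 0.69 for *Fam124a* and 0.77 and 0.88 for *Cdhr1*, and -0.93 and -0.72 for *Mmrn2*. The gap between the 2 embryos kept its sign in 9 of the 10 genes, where it did in 62.7% of all 13747 placed genes, and for *Ncoa4* and *Cdhr1* its size changed by little. The exception was *Phyhip*, which went from 0.09 to -0.23. The embryos also differ in sex, so sex and embryo cannot be told apart.

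KO embryo 3 differed from the mean of KO embryos 1 and 2 in control by -2.94 on the log2 scale for *Anxa8*, by -1.04 for *Peli2*, -0.93 for *Tmem260* and -0.71 for *Cdhr1*. It was above that mean by 1.03 for *Fam124a*, 1.00 for *Phyhip* and 0.71 for *Mmrn2*. The difference was smallest for *Rem2* at 0.03 and for *Ppp1r3e* at -0.12.

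The Het libraries were compared with the KO range and with the midpoint of WT and KO on the log2 scale. Het was placed between WT and KO, or beyond either, only where every KO library compared lay on the same side of WT. The 10 genes were picked for a KO shift and meet this more often than other genes, so the shares over all genes are background only. In control, Het lay inside the range of the 3 KO libraries for 9 of 10 genes, *Ppp1r3e* excepted, which lay between WT and KO, where 55.5% of all 13747 placed genes were inside and 1.47% between. Against KO embryos 1 and 2 alone Het was inside their range for 5 of 10 (*Ncoa4*, *Mmrn2*, *Cdhr1*, *Rem2* and *Fam124a*), beyond KO for *Peli2*, *Tmem260* and *Phyhip*, and beyond WT for *Anxa8*, where 9.97% of all genes were inside the range, 24.6% beyond KO, 29.8% beyond WT and 3.32% between WT and KO. With doxorubicin Het was beyond KO for *Cdhr1*, *Tmem260*, *Fam124a* and *Phyhip*, where 23.3% of all genes were, and beyond WT for *Anxa8*, *Mmrn2* and, by a difference of 0.00, *Ppp1r3e*, where 26.1% were. Only *Peli2* lay between WT and KO there (4.2% of all genes), *Ncoa4* was inside the KO range (11.3%) and *Rem2* was above all of WT and KO.

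Het was then tested against the midpoint of WT and KO over both treatments with the quasi-likelihood test of edgeR, on 2 Het, 2 WT and 5 KO libraries. The 2 Het libraries are of 1 embryo, as are the 2 WT libraries, and no embryo term was fitted. The SEs and calls thus do not measure the spread between Het or WT embryos. None of 16656 genes passed a false discovery rate (FDR) of 0.01, a background of 0%, although 5230 had an unadjusted p under 0.05 and DESeq2 called 652. For the 10 genes the midpoint is made of the values they were picked on, so their differences are a description with no test. Het was lowest against the midpoint for *Anxa8*, at -2.28 ± 0.73 (SE) on the log2 scale. *Tmem260* followed at -1.02 ± 0.31 (SE) and *Cdhr1* at -1.01 ± 0.40 (SE). *Ppp1r3e* was at 0.37 ± 0.34 (SE) and *Ncoa4* at -0.23 ± 0.41 (SE). Without KO embryo 3 in control, 5342 genes passed, and *Anxa8* was at -2.44 and *Tmem260* and *Cdhr1* at -1.10. With DESeq2 *Anxa8* was at -2.26. With a removed-variation factor *Anxa8* was at -0.60, *Cdhr1* at -0.57 and *Tmem260* at -0.49. The Het cultures are those with high interferon genes in both treatments, so Het genotype and culture state cannot be told apart.

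The genes were picked on KO against WT and not on doxorubicin, although the WT and KO control libraries enter both comparisons. Over all genotypes, 3 of the 10 genes passed an FDR of 0.01, all of them higher with doxorubicin, where 21.9% of 16656 genes were called higher and 18.7% lower. The median log2 fold change was 1.16 over the 10 genes and 0.02 over all genes tested. *Mmrn2* rose by 4.41 ± 0.42 (SE, adjusted p = 6.36e-05), *Cdhr1* by 1.84 ± 0.31 (SE, adjusted p = 0.00114) and *Ppp1r3e* by 1.64 ± 0.29 (SE, adjusted p = 0.00149). These 3 stayed past the threshold in each alternative run for this comparison.

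**Figure D3:**
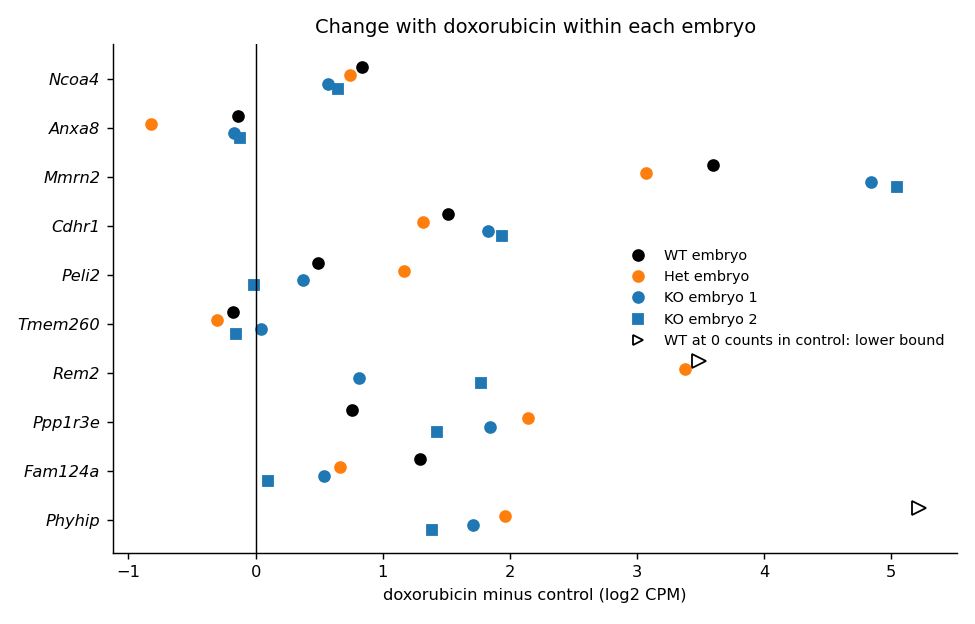
Change with doxorubicin (log2 CPM, doxorubicin minus control) of each gene within the WT (black), Het (orange) and KO embryos 1 and 2 (blue circle and square); open triangles are lower bounds for WT where the control library held 0 counts. *Mmrn2* and *Cdhr1* lie right of 0 in all 4 embryos, and *Anxa8* left of 0 in all 4.

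Within embryos, *Mmrn2* was 16.4-fold higher with doxorubicin in WT, 10.3-fold in Het and 33.8-fold and 46.8-fold in KO embryos 1 and 2, from control levels of 14 counts or fewer. *Cdhr1* was 2.87-fold higher in WT, 2.55-fold in Het and 3.66-fold and 3.91-fold in KO. *Ppp1r3e* was 1.70-fold higher in WT, 4.56-fold in Het and 3.91-fold and 2.85-fold in KO. All 4 embryos moved the same way for these genes. Whether the sizes differ between genotypes was not tested, since WT and Het have 1 embryo each. Over the libraries, the summed endothelial markers were at 55.8 to 134 CPM in control and 101 to 177 CPM with doxorubicin, with *Robo4* or *Cldn5* at 0 counts in each control library and none at 0 with doxorubicin. Of 11 endothelial markers tested, 5 rose, with a median log2 fold change of 1.17, where 21.9% of all genes rose. The rise was not limited to this list: of 7 epithelial markers tested 4 rose and 1 fell, with a median of 2.49. The part of the endothelial markers in the *Mmrn2* change was not tested.

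*Rem2* was at 2.56 ± 0.77 (SE, adjusted p = 0.0194) and *Phyhip* at 2.12 ± 0.76 (SE, adjusted p = 0.0415), short of the threshold. With the embryo as a block both passed, at 2.67 (adjusted p = 0.00688) and 2.29 (adjusted p = 0.00745). *Ncoa4*, at 0.69 ± 0.33 (SE, adjusted p = 0.107), passed with the block at 0.73 (adjusted p = 0.00107). *Rem2* and *Phyhip* were at 0 in the WT control library, a value they were picked on, which raises their differences. In the KO libraries alone they were at 1.33 ± 0.60 (SE, adjusted p = 0.139) and 1.18 ± 0.45 (SE, adjusted p = 0.0932). *Phyhip* was 4.01-fold higher in Het and 3.36-fold and 2.68-fold in KO. *Rem2* was 12.9-fold higher in Het and 1.83-fold and 4.23-fold in KO. The other 4 genes did not pass: *Peli2* was at 0.65 ± 0.31 (SE, adjusted p = 0.105), *Fam124a* at 0.40 ± 0.39 (SE, adjusted p = 0.411), *Tmem260* at 0.02 ± 0.24 (SE, adjusted p = 0.944) and *Anxa8* at 0.01 ± 0.52 (SE, adjusted p = 0.983). *Anxa8* was within each embryo slightly lower with doxorubicin, from -0.82 in Het to -0.12 in KO embryo 2 on the log2 scale.

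In the KO libraries alone, *Mmrn2* was the only one of the 10 genes past the threshold, at 4.93 ± 0.53 (SE, adjusted p = 0.00344), where 12.8% of 14904 genes passed and 8.06% were higher. *Cdhr1* at 2.19 ± 0.46 (SE, adjusted p = 0.0168) and *Ppp1r3e* at 1.79 ± 0.40 (SE, adjusted p = 0.0194) did not. With the embryo as a block 10055 genes passed in place of 1911, and *Cdhr1* (1.97, adjusted p = 6.46e-09), *Ppp1r3e* (1.76, adjusted p = 7.32e-05), *Phyhip* (1.63, adjusted p = 1.48e-06) and *Ncoa4* (0.67, adjusted p = 0.000943) were among them. Without KO embryo 3 in control, *Cdhr1* (1.97, adjusted p = 0.00132), *Ppp1r3e* (1.74, adjusted p = 0.00188) and *Phyhip* (1.61, adjusted p = 0.000574) passed. *Mmrn2* no longer passed when any other KO library was left out, with adjusted p from 0.0141 to 0.0541 and values from 4.53 to 5.19. As a check of the treatment over all genotypes, none of 12 p53 target genes rose and *Phlda3* fell, with a median log2 fold change of -0.24. A rise of p53 targets was thus not seen.

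Along the chromosome, genes shifted by 1.5-fold or more in 1 direction in all 5 KO libraries were few. On chromosome 14 these were 9 of 463 genes, 1.94% (exact 95% interval 0.893 to 3.66%, which covers counting error only), all of them lower in KO. On the other chromosomes 18 of 13284 genes, 0.136% (0.0803 to 0.214%), were shifted, 14 of them higher and 4 lower, or 0.0301% of genes lower. No other chromosome had a larger share than chromosome 14, and the next was chromosome 15 at 0.542%. Of the 10 genes, *Ncoa4*, *Cdhr1*, *Peli2*, *Tmem260* and *Ppp1r3e* are among the 9, as are *Sall2*, *Ang* and *Rpph1*. These 5 were picked on this contrast and *Sall2* is the targeted gene, so the chromosome 14 share is a description with no test. All ratios rest on the same WT embryo. *Fam124a* and *Phyhip* missed the fold with doxorubicin.

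**Figure D4:**
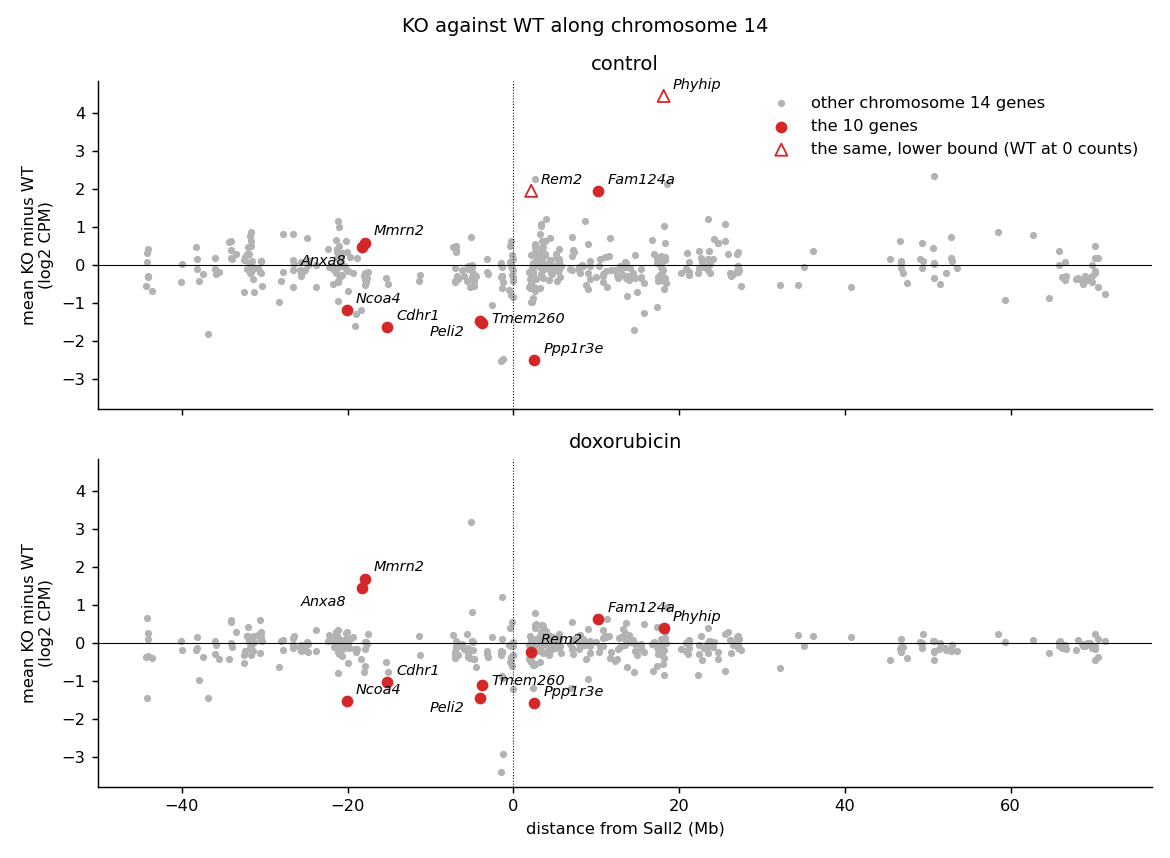
Mean KO minus WT (log2 CPM) of chromosome 14 genes at a mean of 1 CPM or more against their distance from *Sall2* in Mb, in control (top) and with doxorubicin (bottom); red points are the 10 genes, open triangles are lower bounds where WT held 0 counts, and 10 other genes with WT at 3 counts or fewer in control are not drawn in the top panel. The 10 genes are spread from 20.13 Mb on one side to 18.13 Mb on the other, among grey points that mostly lie near 0.

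By distance, 4 of 37 genes in the 5 Mb before *Sall2* were shifted (*Peli2*, *Tmem260*, *Rpph1* and *Ang*), and 2 of 75 in the 5 Mb from *Sall2* on (*Sall2* and *Ppp1r3e*). None was shifted in the next 5 Mb on either side, of 19 and 33 genes. Among the genes named here, *Cdhr1* was the only one of 22 genes between 10 and 20 Mb before *Sall2*, and *Ncoa4* the only one of 55 between 20 and 30 Mb. No gene beyond 30 Mb on the one side or 20 Mb on the other was shifted, of 57, 41 and 57 genes.

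Few genes of chromosome 14 were shifted, and the neighbours of the 10 held none. Apart from *Peli2* and *Tmem260*, which neighbour each other, the 2 expressed genes on each side gave 36 genes, and none of the 36 was shifted in all KO libraries, a share near the background of 1.94% of chromosome 14 genes. *Homez*, 1.7 kb from *Ppp1r3e*, differed from WT by -0.58 in control and -0.57 with doxorubicin on the log2 scale, and *Bcl2l2*, on its other side, by -0.20 with doxorubicin. *Sncg*, 0.7 kb from *Mmrn2*, differed by -0.54 and -0.15, opposite to *Mmrn2*. *Lrp10*, 4.6 kb from *Rem2*, differed by -0.47 and 0.07, and *Bmp1*, 5.7 kb from *Phyhip*, by -0.35 and -0.39.

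Likeness between genes was measured as Pearson's r of log2 CPM centred within treatment, over the 9 libraries, as a description of libraries that share embryos and culture state. Among the 10 genes the closest pair was *Peli2* and *Tmem260* (r = 0.88), followed by *Cdhr1* and *Peli2* (r = 0.864). *Fam124a* and *Phyhip* had r = 0.84, and *Tmem260* and *Fam124a* were the most opposed at r = -0.927. Among 13860 genes, the most alike was *Ccser2* for *Ncoa4* (r = 0.96) and *Anxa11* for *Anxa8* (r = 0.983), both on chromosome 14. For *Mmrn2* it was *Mrpl44* (r = 0.936), for *Cdhr1* *Gid4* (r = 0.975) and for *Tmem260* *Pop1* (r = 0.98). For *Rem2* it was *Hes7* (r = 0.917), for *Ppp1r3e* *Klhl12* (r = 0.932), for *Fam124a* *Dnajc17* (r = 0.961) and for *Phyhip* *Calr3* (r = 0.914). These 7 lie on other chromosomes.

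Paralogs and partners of the 10 genes were examined as a list of 65, 64 of them in the table and 3 on chromosome 14. None of the 55 at a mean of 1 CPM or more was shifted in all KO libraries. With doxorubicin 14 of 59 tested rose and 7 fell, where 21.9% of all genes rose and 18.7% fell, and their median log2 fold change was 0.31 against 0.02 over all genes. Among the glycogen-targeting subunits related to *Ppp1r3e*, *Ppp1r3g* rose by 4.71 ± 0.54 (SE, adjusted p = 0.00016), *Ppp1r3d* by 2.45, *Ppp1r3b* by 1.23 and *Ppp1r3f* by 1.10, while *Ppp1r3c* was at 0.28 and *Ppp1r3a* at -1.75 without passing. *Gys1*, muscle glycogen synthase, fell by 1.37 and the catalytic subunit *Ppp1cc* by 1.78.

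In the other families, *Peli3* rose by 2.76 and *Traf6*, a ubiquitin ligase of the same receptor pathway, fell by 1.35, while *Peli1* was at 0.10. *Emilin3*, of the family of *Mmrn2*, rose by 6.67, and *Cd93*, a receptor for *Mmrn2*, was at 0.20. *Gem*, of the same GTPase family as *Rem2*, rose by 2.85 and the calcium channel subunit *Cacnb4* by 1.68. *Cdhr2* and *Cdhr5*, protocadherins of the brush border, rose by 5.32 and 5.61 from under 1 CPM. *Anxa11* rose by 1.02, and *Anxa3* and *Anxa7* fell by 1.33 and 0.69. *Ncoa1*, a nuclear receptor coactivator, rose by 2.05 and *Ncoa3* fell by 0.83. *Tmtc2* and *Pomt2*, further O-mannosyltransferases, rose by 1.09 and 0.92, and the kinase *Dyrk1a* fell by 0.88. Ferritin genes *Fth1* and *Ftl1*, whose protein is the cargo of NCOA4, were at 0.61 and 0.37 without passing.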

How the data were processed

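Total RNA was depleted of rRNA and made into stranded libraries. The authors merged 4 FASTQ files per library, aligned them to mm10 with HISAT2 (version 2.1.0 in the submitters' notes) and counted reads on iGenomes genes with HTSeq (union mode). The deposited values are raw counts. Strand setting and version of HTSeq are not given in the sources used here, so overlapping genes are uncertain. The 10 genes, the gene lists and the tests were chosen with earlier results of these data known.

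The analysis used edgeR 4.0.16 under R 4.3.3 (TMM scaling, filterByExpr, two-sided quasi-likelihood test, Benjamini-Hochberg adjustment over all genes tested, FDR 0.01). Doxorubicin and Het against the midpoint of WT and KO were fitted as genotype plus treatment. CPM used TMM library sizes; log2 CPM used a prior count of 2. Alternatives were DESeq2 1.42.0, other scalings and filters, a removed-variation factor, an embryo block and each KO library left out. The tests were tested on simulated data.

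KO numbers are shared between treatments in the labels and were taken as embryos. Over 13860 genes the difference between KO embryos 1 and 2 correlated between treatments at r = 0.476, and *Xist* and Y-linked counts matched for both numbers. Gene positions are from GENCODE on GRCm38, with 22708 of 24062 genes matched by symbol, 904 by an older symbol and 450 unmatched. The named genes are the 10, *Sall2*, the gene most alike to each, neighbours, and listed paralogs and partners past the threshold. Any other gene was named after its values were seen, and 2 genes are not reported here. Intervals and floors cover counting error only.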

Additional observations from a re-analysis of the deposited data

How the results depend on the processing

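The counts of KO libraries on 1 side of WT (8 and 9 of the 10 genes) moved by less than 1.5 times under other size factors, a prior count of 0.5, library sizes without *Rn45s* and with each KO library left out. The chromosome 14 share of 1.94% became 3.89% at the looser fold tried and 0.648% at 2-fold, where *Ppp1r3e* alone of the 10 remained. It ranged from 2.16 to 3.02% (without KO control 3) with KO libraries left out. With the size factors of DESeq2 it was 1.51% and at a mean of 5 CPM 1.32%, and 4 of the 10 genes were shifted in each. The share of 0.136% on other chromosomes became 0.655% at the looser fold, 0.0151% at 2-fold and 0.0468% at a mean of 5 CPM. It was 0.181% without KO control 1, 0.256% without KO control 2, 0.294% without KO control 3, 0.211% without KO doxorubicin 1 and 0.369% without KO doxorubicin 2.

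The 6760 doxorubicin calls ranged from 4322 (without KO doxorubicin 2) to 9770 with KO libraries left out and became 10281 without Het and KO control 3 (chosen after seeing the data). The 1911 calls in KO became 5130 at an FDR of 0.05, 4555 with DESeq2, 10055 with the embryo as replicate block, and ranged from 0 to 8126 (without KO control 3). There were 0 calls without KO control 2, KO doxorubicin 1 or KO doxorubicin 2, at unadjusted p under 0.05 in 5760, 4063 and 4013 genes, and 194 without KO control 1. For Het against the midpoint, 0 calls became 1 at an FDR of 0.05, 1 with every gene, 652 with DESeq2 and ranged from 0 to 5342 (without KO control 3). The cause was not tested.

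Some values changed sign. For doxorubicin, *Anxa8* became 0.00 with every gene, ranged from -0.27 to 0.16 with KO libraries left out, was -0.27 with the embryo block and -0.13 without Het and KO control 3. *Tmem260* ranged from -0.13 to 0.10 and was -0.13 with the block and -0.08 without Het and KO control 3. In KO alone, leaving out KO libraries moved *Ncoa4* from -0.30 (without KO doxorubicin 2) to 1.12, *Fam124a* from -0.54 to 0.30, *Anxa8* from -0.11 to 0.77 and *Tmem260* from -0.02 to 0.44. *Fam124a* became 0.04 with upper-quartile scaling and 0.35 with the block, which put *Anxa8* at -0.10 and *Tmem260* at 0.00. With the removed-variation factor, Het against the midpoint became -0.25 for *Phyhip* and 0.20 for *Peli2*. With KO libraries left out, KO against WT ranged from -0.03 (without KO control 2) to 1.46 for *Anxa8* in control and from -0.47 to 0.01 (without KO doxorubicin 2) for *Rem2* with doxorubicin. With that factor *Peli2* (1.06) and *Anxa8* (1.27) passed for doxorubicin.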
